A study of Homo sapiens with 4 samples.

Results

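ADAM17, ADAM10, ADAM9 and ADAM15 are membrane-anchored metalloproteases, and RHBDF1 and RHBDF2 encode the iRhoms, proteins that carry ADAM17 to the cell surface. These 6 genes were followed through a pull-out of RNA bound to the microRNA miR-26a in DU-145 cells, a prostate cancer cell line. They were chosen by name, as ADAM17 and its closest functional relatives, and were found by matching the RefSeq accession of each deposited transcript row to a gene symbol. All 6 were present among the 25688 genes of the tables, on 22 transcript rows, 12 of which were above 0 in at least 1 library. ADAM17 was included because it is a published miR-26 target and because its value in the comparison of biotin with control libraries was already known. The values of the 6 genes in that comparison are therefore given as a description, with no test.

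The study asked which RNAs miR-26a binds, and deposited 4 libraries in 2 groups. The 2 control libraries came from cells transfected with an untagged miR-26a duplex. The 2 biotin libraries came from cells given a mix of miR-26a duplexes with biotin at the 3′ end and a thiouridine, a photoreactive base, at nucleotide 7 or nucleotide 17. Both groups thus carried added miR-26a at 60 nM, received with lipofectamine 24 h after seeding, and both were irradiated at 365 nm with 2 J/cm2 to cross-link thiouridine to RNA. Total RNA of both groups was incubated with streptavidin beads for 4 h before sequencing. The biotin tag and the thiouridine always came together, and what each contributed cannot be told apart. No library of RNA before the beads was analysed here, so a value is the share of a gene in the recovered RNA and not its level in the cell. The libraries are bulk RNA of a single cell line, in which fewer cells with a transcript and less of it per cell cannot be told apart.

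A microRNA guides the Argonaute protein to messenger RNAs, mostly by pairing of its seed, the bases near its 5′ end, with a complementary stretch in the 3′ untranslated region (UTR). ADAM17, also named TACE, cuts TNF, several ligands of the EGF receptor and many receptors from the cell surface, a step called shedding. ADAM10 sheds an overlapping set of substrates, among them Notch receptors and the amyloid precursor protein, and reaches its substrates with the help of tetraspanins of the TspanC8 group. ADAM9 and ADAM15 are further catalytically active members of the family. The iRhoms are relatives of the rhomboid proteases that have lost catalytic activity, and FRMD8 stabilises the complex of iRhom and ADAM17 at the membrane.

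The sequences that bear on the pull-out are the microRNA and the places in the transcripts that its seed can pair with, and these are shown 5′ to 3′. The mature miR-26a-5p of 22 nucleotides is from RefSeq (GRCh38.p14) and is encoded at chr3:37969413-37969434 on the plus strand (MIR26A1) and at chr12:57824658-57824679 on the minus strand (MIR26A2). Capitals in it mark nucleotides 2 to 8, the seed. The other lines give 30 bases of the transcript in GENCODE 29 (hg38), with the bases complementary to the seed in capitals, TACTTGA for nucleotides 2 to 8 and ACTTGA for nucleotides 2 to 7.
miR-26a-5p: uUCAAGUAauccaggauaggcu
ADAM17, 3′ UTR, nucleotides 2 to 8: actcagatacttgttatactaaTACTTGAa
ADAM17, 3′ UTR, nucleotides 2 to 7: gggttgggggctgtccccacaagACTTGAt
ADAM10, coding sequence, nucleotides 2 to 8: aaagtagaaacatcaaataaagTACTTGAt
RHBDF2, coding sequence, nucleotides 2 to 8: gcctgagaggaagaacccagccTACTTGAa
TSPAN5, 3′ UTR, nucleotides 2 to 8: gggagggtaggggacccagatgTACTTGAa

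The ADAM17 stretch complementary to nucleotides 2 to 8 lies at chr2:9488759-9488765 on the minus strand, in exon 19 of 19, at position 1412 of a 3′ UTR of 1691 nucleotides. An A follows it, opposite nucleotide 1 of the microRNA. ADAM9 also had 1 such stretch in its 3′ UTR, in the last exon, starting at position 1288 of 1301 and so close to the annotated end of the transcript. The other 4 genes had none in the 3′ UTR. ADAM10 had 1 in the coding sequence, at chr15:58682234-58682240 in exon 3 of 16, and RHBDF2 had 1 at chr17:76479833-76479839 in exon 4 of 19, both on the minus strand. ADAM15 had neither the longer nor the shorter stretch in its 3′ UTR or coding sequence, and RHBDF1 had only the shorter one, in its 3′ UTR. Counting those inside a longer match, the 3′ UTR held the shorter stretch 6 times in ADAM10, 2 times each in ADAM17 and ADAM9, 1 time in RHBDF1 and not in RHBDF2. TSPAN5, a TspanC8 tetraspanin, is shown because it had the highest biotin-to-control difference among the genes around the sheddases described further on. Its stretch is at chr4:98472218-98472224 on the minus strand, in exon 8 of 8. Among those genes it was the only one called higher with biotin that had TACTTGA in its 3′ UTR. Of those called lower, MAD2L1 and DERL2 had 1 each, and TGFA and DSG2 had none. Over 9319 tested genes with an annotated transcript, 11.9% had TACTTGA on the transcribed strand of the 3′ UTR and 6.67% had it in the coding sequence. The shorter ACTTGA was in the 3′ UTR of 34.3%. A match is a description of letters and was not tested as a site of binding.

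The 4 libraries held an estimated 16030000 to 23640000 mapped reads, at which 3 reads on a transcript of 1 kb correspond to 0.127 to 0.187 FPKM, fragments per kilobase of transcript relative to the library's mapped total. Such a floor covers counting error only. Of the genes, 9934 reached at least 1 FPKM in at least 2 libraries and were tested. Across them the Pearson correlation of log2(FPKM + 1) was 0.971 for the control pair, 0.970 for the biotin pair and 0.876 to 0.883 between groups. With limma and Benjamini-Hochberg adjustment at 0.05, 1307 genes (13.2%) rose and 926 (9.32%) fell with biotin. By unadjusted p under 0.05, limma called 19.5% higher and 19.8% lower. Of 8 markers of prostate epithelium, 7 were expressed and summed to 217.5 to 273.6 FPKM, whereas KRT5 was listed at 0, as were KLK2 and KLK3 of luminal prostate cells. The markers of endothelium summed to at most 0.132 and those of fibroblasts to at most 0.376 FPKM in any library. Of 5 blood markers, CD68, which epithelial lines can also express, reached 5.42 to 10.1 FPKM and PTPRC, CD3E and HBB were listed at 0.

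ADAM17 was recovered at 4.02 and 4.60 FPKM in the control libraries and at 34.2 and 46.5 FPKM with biotin. Both biotin libraries were far above both controls, the lower of them by 7.42 times the higher control. The means were 4.31 ± 0.412 and 40.3 ± 8.74 FPKM (SD, n = 2 libraries each), a ratio of 9.36. The difference of log2(FPKM + 1) was 2.95 ± 0.21 (SE), which ranked 36 from the top among the 9934 tested genes. At the estimated depth these values stand for about 229 and 292 fragments in the controls and 2132 and 3908 with biotin. These fragment numbers are computed from the FPKM, which lay below its own deposited interval in every library. On the interval midpoints, 2.09 to 2.51 times the FPKM, they would be higher.

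ADAM15 was at 23.8 and 39.6 FPKM without the tag and at 104.4 and 101.0 FPKM with it. The controls differed from each other more than the biotin libraries did, yet the groups were apart by 2.55 times from the higher control to the lower biotin library. The mean went from 31.7 ± 11.2 to 102.7 ± 2.39 FPKM, a ratio of 3.24 and a log2 difference of 1.71 ± 0.27 (SE), rank 260 of the tested genes. ADAM15 was the most abundant of the 6 genes in both groups by mean FPKM. It held no complement to the seed in the regions searched, and whether that bears on its recovery was not tested.

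ADAM10, the protease closest to ADAM17, was lower in the biotin libraries. Its values were 9.41 and 8.62 FPKM in the controls and 5.91 and 5.89 FPKM with biotin. The groups did not overlap, and the means of 9.02 ± 0.557 and 5.90 ± 0.0162 FPKM made the control 1.53 times the biotin value. ADAM9 was at 21.4 and 25.0 FPKM in the controls and at 15.8 and 18.3 FPKM with biotin. It too was lower in both biotin libraries, with means of 23.2 ± 2.56 and 17.0 ± 1.78 FPKM, the control being 1.36 times the biotin value. The log2 differences were -0.54 ± 0.15 for ADAM10 and -0.42 ± 0.19 (SE) for ADAM9, at the 13.8 and 20.5 percentiles of the tested genes, whose median was -0.06. The 3′ UTR of ADAM9 holds a complement to nucleotides 2 to 8, and whether that bears on its recovery was not tested.

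The iRhoms differed less between the groups than ADAM17 or ADAM15. RHBDF1 was at 6.60 and 8.88 FPKM in the controls and at 8.56 and 13.7 FPKM with biotin. Its groups overlapped, since biotin replicate 1 was below control replicate 2. The means were 7.74 ± 1.62 and 11.1 ± 3.65 FPKM, with a log2 difference of 0.45 ± 0.26 (SE). RHBDF2 was at 7.32 and 8.50 FPKM in the controls and at 9.86 and 8.58 FPKM with biotin. The lower biotin value was only 1.01 times the higher control value, so the groups touched without overlapping. Its means were 7.91 ± 0.837 and 9.22 ± 0.905 FPKM, and the log2 difference was 0.20 ± 0.17 (SE).

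**Figure D1:**
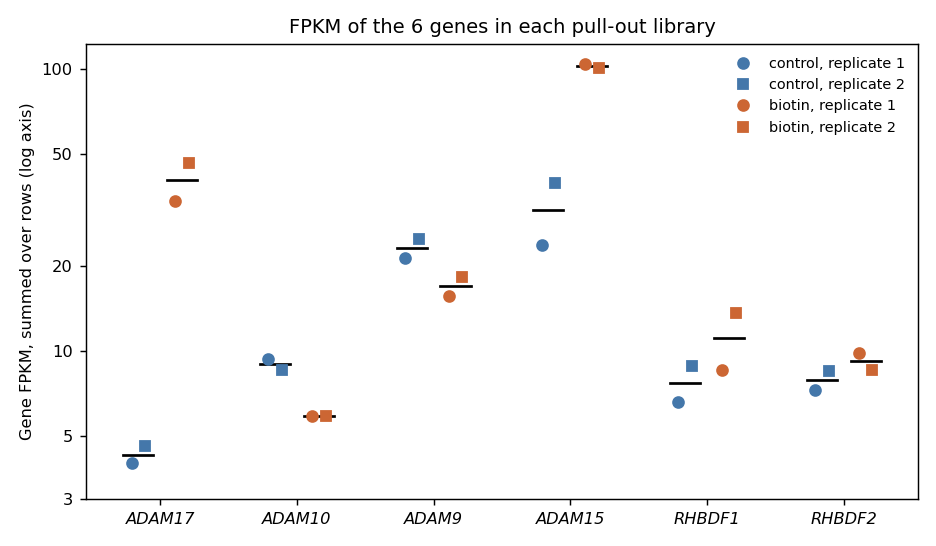
FPKM (log axis) of the 6 genes in each of the 4 pull-out libraries, each point a library and each bar a group mean. ADAM17 went from 4.02 and 4.60 FPKM in the controls to 34.2 and 46.5 FPKM with biotin, ADAM15 was also higher, ADAM10 and ADAM9 were lower, and the iRhoms lay close together.

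By size, ADAM17 and ADAM15 were at least 2-fold higher, on FPKM + 1, in each biotin library than in any control, as were 5.08% of all tested genes. None of the 6 was at least 2-fold lower, against 1.21% of tested genes. At any size, 3 of the 6 had both biotin libraries above both controls and 2 had both below, against 29.4% and 37.7% of tested genes. The genes were chosen with these values known, so nothing is read from these shares.

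The balance between the genes differed by library as their levels did. ADAM17 stood at 0.427 and 0.534 times ADAM10 in the controls and at 5.78 and 7.90 times ADAM10 with biotin. ADAM15 went from 1.12 and 1.59 times ADAM9 to 6.62 and 5.53 times. The ratio of the iRhoms, RHBDF1 to RHBDF2, was 0.901 and 1.04 in the controls and 0.868 and 1.60 with biotin, so its groups overlapped. By mean FPKM the order in the controls, from the lowest, was ADAM17, RHBDF1, RHBDF2, ADAM10, ADAM9 and ADAM15. There the iRhoms overlapped each other, as did RHBDF1 and ADAM10, and ADAM9 and ADAM15, and in control replicate 2 RHBDF1 was above ADAM10. With biotin the order was ADAM10, RHBDF2, RHBDF1, ADAM9, ADAM17 and ADAM15, and the iRhoms again overlapped.

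The deposited tables also give an interval for each FPKM value, and for 3 of the 6 genes the value lies outside its own interval. ADAM17 had intervals of 8.70 to 11.02 and 8.58 to 10.7 FPKM in the controls and of 82.7 to 88.6 and 107.7 to 114.7 FPKM with biotin, all above the FPKM values. ADAM10 was likewise below its intervals, which ran from 20.7 to 23.5 FPKM over the controls and from 14.5 to 17.9 FPKM over the biotin libraries. RHBDF1 was above its intervals, which ran from 1.11 to 2.39 FPKM in the controls and from 1.29 to 2.91 FPKM with biotin. ADAM9, ADAM15 and RHBDF2 lay inside theirs. Over all rows of at least 1 FPKM, 31.3% to 34.3% per library were outside their interval. Among genes with a single row, such as ADAM17, ADAM10 and RHBDF1, the share was 64.8% to 70.7%, and among genes with more rows 5.55% to 6.48%. The reason was not tested.

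The contrast between groups depended less on this than the order of the genes. With interval midpoints in place of FPKM, biotin over control was 10.1 for ADAM17, 0.730 for ADAM10, 0.734 for ADAM9, 3.19 for ADAM15, 1.21 for RHBDF1 and 1.16 for RHBDF2. The order of levels did move. ADAM10 had midpoints of 22.3 and 21.8 in the controls, next to the 21.4 and 25.0 FPKM of ADAM9, and RHBDF1 had midpoints of 1.54 and 1.92, below every other of the 6 genes. ADAM17 had midpoints of 9.86 and 9.62 in the controls, above those of both iRhoms, and of 85.7 and 111.2 with biotin, overlapping the 105.0 and 101.5 of ADAM15. The places of ADAM17, ADAM10 and RHBDF1 in the order of levels therefore depend on which deposited value is used.

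**Figure D2:**
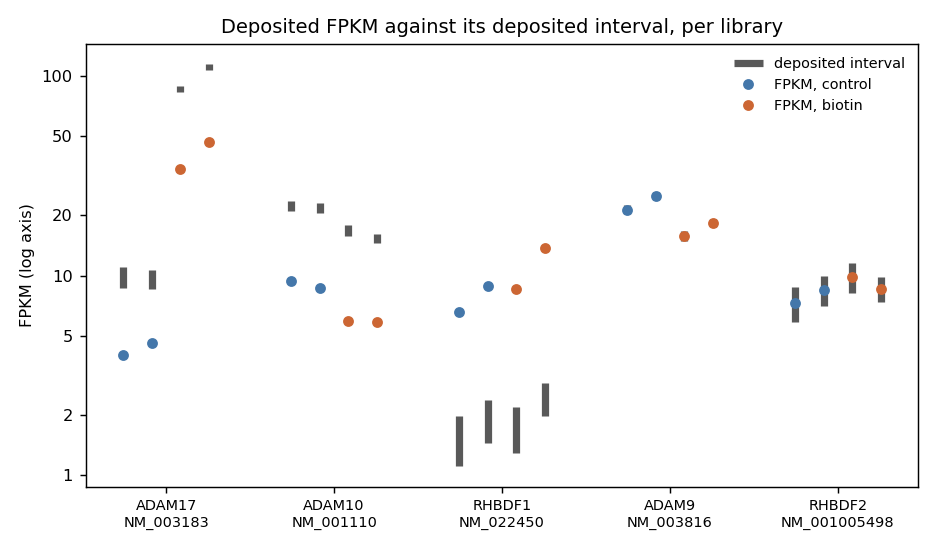
Deposited FPKM (points) and deposited interval (bars) in each library, on a log axis, for the 5 genes with a value on 1 row, so without ADAM15. The ADAM17 and ADAM10 points lie below their bars and the RHBDF1 points above theirs in all 4 libraries, while ADAM9, whose bars are hidden by the points, and RHBDF2 lie inside.

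ADAM15 was spread over several transcript rows, and the split between them was not stable. Of its 12 rows, 7 were above 0 in any library, with 2 in control replicate 1 and 3 in each of the other libraries. The row NM_003815 held 83.0% of the gene in control replicate 1, none in control replicate 2, 77.2% in biotin replicate 1 and 41.1% in biotin replicate 2. NM_207191 held 40.8% in control replicate 2 and was at 0 elsewhere. NM_207195 held 37.5% in control replicate 2 and 40.1% in biotin replicate 2. Libraries of the same group therefore differed in which ADAM15 row carried the gene, and only the sum over rows is compared. On the row NM_003815 alone the log2 difference would be 3.69 in place of 1.71.

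**Figure D3:**
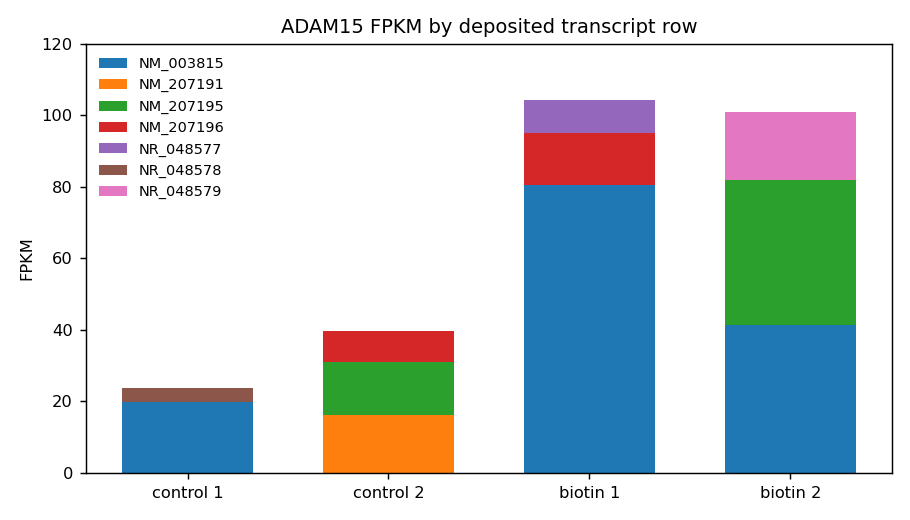
FPKM of ADAM15 in each library, divided among the 7 transcript rows that were above 0 in any library. The totals of 104.4 and 101.0 FPKM with biotin exceed the 23.8 and 39.6 FPKM of the controls, and the rows that make them up differ between replicates.

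The other genes had 1 row with a value each, although ADAM9 had 5 rows and RHBDF2 had 2. In the deposited coordinates (hg38) ADAM17 ran over chr2:9489281-9555788, ADAM10 over chr15:58595204-58749978, ADAM15 over chr1:155051272-155062776 and RHBDF1 over chr16:58059-72631. The RHBDF2 row with a value ran over chr17:76470893-76487909, and ADAM9 lies on chromosome 8. The deposited ADAM10 model has 5034 nucleotides, compared with 11431 in GENCODE 29, where its 3′ UTR is longer.

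The deposited ADAM17 model also stops short of the annotated 3′ end. It leaves out the last 795 bases of the 3′ UTR in GENCODE 29 and holds 896 of its 1691 bases. The complement to nucleotides 2 to 8 lies 516 bases beyond the end of the deposited model, and the one to nucleotides 2 to 7 lies 208 bases beyond it. By these coordinates the FPKM of ADAM17 covers the rest of the transcript and not these stretches. The stretches in ADAM9, ADAM10, RHBDF2, TSPAN5 and DERL2 that match nucleotides 2 to 8 all lie inside the deposited models. The one in MAD2L1 lies 2409 bases outside its deposited model. Among all tested genes, 242 of 1344 such matches in 3′ UTRs (18.0%) were outside the deposited span. Of the shorter stretches in the ADAM10 3′ UTR, those at positions 2118 and 2153 lie inside the deposited model. Those at positions 4105, 6047, 6240 and 7117 lie 1762 to 4774 bases beyond its end.

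**Figure D4:**
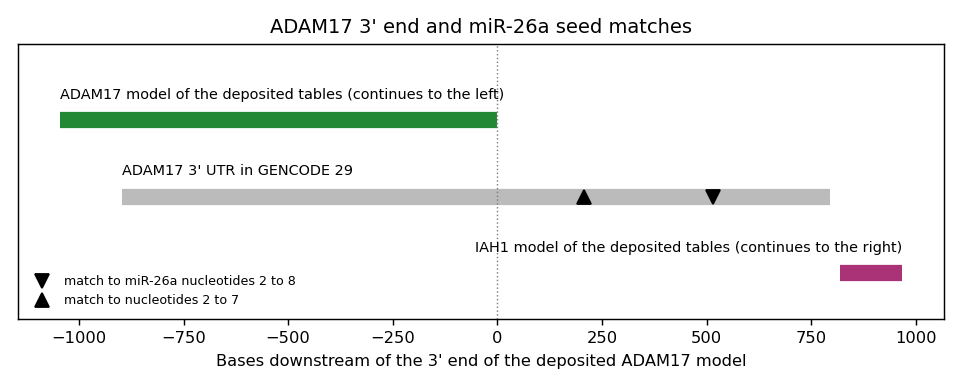
The 3′ end of ADAM17, in bases downstream of the end of the deposited model, with the deposited ADAM17 and IAH1 models and the 3′ UTR of GENCODE 29 as bars. The complements to miR-26a nucleotides 2 to 8 and 2 to 7 (triangles) lie 516 and 208 bases past the deposited end, before the IAH1 model at 818 bases.

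Some genes overlap the 6 in current annotation, and the strand setting of the counting is not given in the sources used here. In the deposited models IAH1 and ADAM17 do not overlap, nor do TM2D2 and ADAM9. Whether any reads were shared was not tested. IAH1, whose RefSeq span overlaps that of ADAM17, was at 22.0 and 31.4 FPKM in the controls and at 12.0 and 13.3 FPKM with biotin. It fell by 1.00 ± 0.22 on the log2 scale (SE, limma adjusted p = 0.0254), opposite to ADAM17. DCST1-AS1, an antisense RNA whose longer transcript spans ADAM15, was at 1.22 and 1.87 FPKM in the controls and at 4.25 and 3.47 FPKM with biotin, a rise of 0.94 ± 0.18 (limma adjusted p = 0.0181). The row with these values, NR_040772, ends before ADAM15 begins, and the row that spans ADAM15, NR_040773, was listed at 0 in all 4 libraries. TM2D2, whose RefSeq span overlaps the start of ADAM9, differed by -0.22 ± 0.15 (limma adjusted p = 0.316). The call of IAH1 was lost without control replicate 2, at -0.75, and that of DCST1-AS1 without control replicate 1, at 0.76.

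The genes with the profile nearest to ADAM17, by Euclidean distance of log2(FPKM + 1) over the 4 libraries, were COMMD10 at 0.492, CUL2 at 0.517, FANCC at 0.556, CENPL at 0.564 and GJC1 at 0.565. COMMD10, the nearest, was at 5.16 and 5.60 FPKM in the controls and at 42.5 and 44.3 FPKM with biotin. Its biotin libraries were close to each other, where those of ADAM17 were 34.2 and 46.5. The nearest genes to the others were PSMA5 to ADAM10 at 0.0955, HSPD1 to ADAM9 at 0.0982, PYCR1 to ADAM15 at 0.379, PCED1A to RHBDF1 at 0.156 and NUP35 to RHBDF2 at 0.0676. The nearest gene was farther from ADAM17 and from ADAM15 than from any of the other 4 genes. The distance takes in level as well as difference and rests on 4 libraries.

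Around the 6 genes, lists of relatives, regulators and substrates were tested within the fit over all 9934 genes. Of 128 genes, 79 were expressed enough to be tested, and 15 rose, 4 fell and 60 did not pass. The lists were drawn up with results of these data known, and their counts are descriptions to set beside the 13.2% higher and 9.32% lower of all tested genes. With 2 libraries in each group, a p-value sets a group difference against a spread estimated from these 4 libraries. Limma draws that spread in part from other genes.

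Regulators of ADAM10 and ADAM17 had the most genes called higher. Of 30 listed, 25 were tested, 8 rose (32.0%) and 1 fell, and the median log2 difference was 0.29 against -0.06 for all tested genes. TSPAN5, which binds ADAM10, was at 3.52 and 3.57 FPKM in the controls and at 32.7 and 31.6 FPKM with biotin. It rose by a log2 difference of 2.87 ± 0.16 (SE, limma adjusted p = 0.00044), close to the 2.95 of ADAM17. Another TspanC8 member, TSPAN33, went from 1.98 and 2.59 FPKM to 8.0 and 8.81 FPKM, a difference of 1.52 ± 0.16 (limma adjusted p = 0.00274). TSPAN14, named after its values were seen, was at 2.92 and 2.88 FPKM and at 5.62 and 6.15 FPKM, with a difference of 0.82 ± 0.14 (limma adjusted p = 0.0127). TSPAN15 and TSPAN17 of the same group, also named after their values were seen, did not pass, with differences of -0.10 and -0.13 that changed sign without control replicate 2.

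FRMD8, the partner of the iRhoms, was at 4.94 and 4.95 FPKM in the controls and at 13.9 and 11.6 FPKM with biotin. Its log2 difference was 1.203 ± 0.163 (limma adjusted p = 0.00596), whereas RHBDF1 and RHBDF2 themselves were at 0.45 and 0.20. CD9, a tetraspanin that associates with ADAM17 and ADAM10, rose from 43.1 and 56.8 FPKM to 146.6 and 127.6 FPKM, a difference of 1.45 ± 0.22 (limma adjusted p = 0.00882). MAD2L2, reported to bind ADAM9, and PCSK7, a proprotein convertase of the kind that removes the inhibitory prodomain of the ADAMs, rose by 1.05 ± 0.25 and 0.85 ± 0.21 (limma adjusted p = 0.031 and 0.035). The eighth gene, SNX33, a sorting nexin, was named after its values were seen and had a difference of 0.58 (limma adjusted p = 0.0478).

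MAD2L1, a spindle checkpoint protein related to MAD2L2 and reported to bind ADAM17, was the regulator that fell, by 0.90 ± 0.15 (limma adjusted p = 0.0125), from 10.0 and 10.7 FPKM to 4.797 and 5.39 FPKM. The most abundant regulators that did not pass were PDIA6 at -0.17, TIMP2 at 0.67 and TIMP1 at -0.25. TIMP3, the main natural inhibitor of ADAM17, was listed at 0 in all 4 libraries. Without control replicate 1 the regulators called higher numbered 3, and without control replicate 2 they numbered 5. FRMD8, TSPAN5 and TSPAN33 passed whichever library was left out. CD9 and MAD2L2 lost their call without control replicate 1, and TSPAN14 and MAD2L1 lost it without control replicate 1 or 2. PCSK7 lost it without either control or without biotin replicate 2, and SNX33 whichever library was left out.

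Among other substrates of the sheddases, 7 of 33 tested genes rose (21.2%) and 1 fell, and the median difference was 0.04. CD44, a hyaluronan receptor, went from 10.8 and 13.8 FPKM to 53.9 and 59.3 FPKM, a difference of 2.12 ± 0.20 (limma adjusted p = 0.00173). The receptor phosphatase PTPRF rose by 1.46 ± 0.20 (limma adjusted p = 0.00651) and the sorting receptor SORT1 by 1.32 ± 0.15 (limma adjusted p = 0.00319). NOTCH1, which ADAM10 cuts after ligand binding, rose by 1.10 ± 0.19 (limma adjusted p = 0.0141). IL6R, the interleukin-6 receptor whose soluble form is made by shedding, went from 2.90 and 2.74 FPKM to 7.03 and 6.50 FPKM, a rise of 1.02 ± 0.14 (limma adjusted p = 0.00636).

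MICB, a ligand of the natural killer cell receptor NKG2D, was listed at 0 in control replicate 1 and at 0.0976 FPKM in control replicate 2. With biotin it was at 1.26 and 1.05 FPKM. It met the FPKM filter only through the biotin libraries, where it is high, so its call as higher carries no weight. It is still counted among the 7 substrates called higher. No fold is given for it because the controls are at or under the value of 3 reads on 1 kb. The seventh, LRP1, an endocytic receptor named after its values were seen, rose by 0.72 ± 0.17 (limma adjusted p = 0.0298). DSG2, a desmosomal cadherin, fell by 0.65 ± 0.18 (limma adjusted p = 0.0491). The most abundant substrates that did not pass were AXL at 0.28, SDC1 at -0.18 and ICAM1 at -0.02. TNF, the substrate that gave TACE its name, was listed at 0 in all 4 libraries. Without control replicate 1, 4 substrates were called higher, and CD44, IL6R and SORT1 passed whichever library was left out. PTPRF and NOTCH1 lost their call without control replicate 1, LRP1 without either control or without biotin replicate 2, and DSG2 whichever library was left out. MICB passed without either control, and without either biotin library it no longer met the FPKM filter.

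Of the ligands of the EGF receptor family, 5 of 10 were tested, none rose and TGFA fell. TGFA, transforming growth factor alpha, is a classic ADAM17 substrate and was at 3.75 and 4.54 FPKM in the controls and at 2.55 and 2.31 FPKM with biotin, a difference of -0.58 ± 0.15 (limma adjusted p = 0.0401). Its call was lost whichever library was left out. AREG, amphiregulin, was at 17.4 and 17.0 FPKM in the controls and at 14.0 and 8.43 FPKM with biotin and did not pass (limma adjusted p = 0.123). EREG and HBEGF, at -0.33 and 0.01, did not pass either. By unadjusted p under 0.05, limma called 0 ligands higher and 2 lower, beside 19.5% and 19.8% of all tested genes.

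The remaining relatives of the 6 genes gave few calls. Of 17 other ADAM proteases, 4 were tested, and limma called 0 in either direction. By unadjusted p under 0.05 it called 1 higher, ADAM19, and 0 lower, where all tested genes gave 19.5% and 19.8%. ADAM8, the most abundant, was at 4.81 and 8.87 FPKM in the controls and at 10.2 FPKM in both biotin libraries, a difference of 0.56 (limma adjusted p = 0.165). ADAM22 and ADAM19 were at -0.35 and 0.51. ADAM19 met the FPKM filter only through the biotin libraries, at 1.13 and 1.91 FPKM, with 0.727 and 0.771 FPKM in the controls. Its unadjusted call as higher therefore carries no weight. Of 10 other membrane sheddases, 6 were tested, and limma called 0, with 2 higher and 0 lower by unadjusted p, against the same 19.5% and 19.8%. The most abundant of these, BACE2, MMP14 and MMP24, had differences of 0.18, 0.51 and -0.19.

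In the rhomboid superfamily, to which the iRhoms belong, 6 of 10 genes were tested. DERL2, a derlin that helps to export misfolded proteins from the endoplasmic reticulum, fell by 0.65 ± 0.17 (limma adjusted p = 0.0438), from 20.0 and 17.7 FPKM to 10.9 and 12.4 FPKM. Its call was lost whichever library was left out. Limma called 0 higher, with 2 higher and 1 lower by unadjusted p, where all tested genes gave 19.5% and 19.8%. The most abundant that did not pass, RHBDD2, DERL1 and RHBDD3, had differences of 0.47, 0.28 and 0.60, so the iRhoms at 0.45 and 0.20 lay within the range of their relatives.

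**Figure D5:**
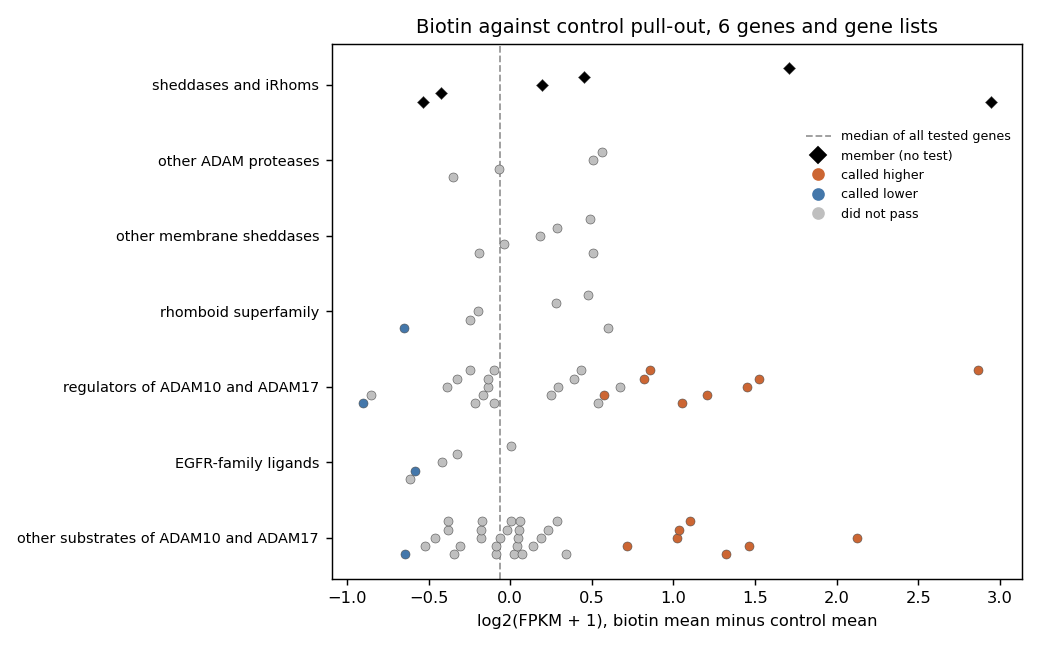
Difference of mean log2(FPKM + 1), biotin minus control, for the 6 genes (black diamonds, no test) and the tested genes of 6 lists (circles, coloured where the limma adjusted p was under 0.05), with the median of all tested genes at -0.06 as a dashed line. ADAM17 at 2.95 and TSPAN5 at 2.87 are far to the right. Called higher were 8 of 25 tested regulators and 7 of 33 tested other substrates, beside 13.2% of all tested genes. The 7 include MICB, whose call carries no weight, and the lists were drawn up with results of these data known.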

How the data were processed

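RNA recovered on streptavidin beads was sequenced as single reads of 50 bases from stranded total RNA libraries, per the labels' protocols. The genome build was hg38 and the tools were TopHat2 2.0.9, Cufflinks 2.1.1, Cuffdiff, cutadapt and FastQC 0.10.1, per the submitters' processing notes. What each did, the annotation and the use of strand were not given in the sources used here. The authors deposited a table per library of 53209 transcript rows. Per the file headers the values and their interval bounds are FPKM, beside coverage and transcript length. Coverage, a signal deposited in the same tables, served here to estimate depth.

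A gene symbol was found in RefSeq or GENCODE 29 for 98.6% of the 46699 accessions, and FPKM was summed per gene. The 22 genes with a row of failed or excess-data status, whose 0 is no measurement, and genes of short structured RNAs were left out of the tests. Genes that reached 1 FPKM in 2 or more libraries were tested on log2(FPKM + 1), a scale that understates changes of low genes, with limma 3.58.1 in R 4.3.3 (variance trend, two-sided, Benjamini-Hochberg adjustment over all 9934 genes, threshold 0.05). All 4 libraries entered without covariates. The script was tested on simulated data. The series design calls the replicates biological. The labels number them in both groups, but across genes the differences between replicates 1 and 2 of the groups correlated at 0.002, so the numbers were not taken as pairs.

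The 6 genes and the lists were chosen with earlier results of these data known. From each list the text names up to 6 genes per direction past the threshold and the 3 most abundant that did not pass, and says where another was added. Seed matches were sought in the GENCODE 29 transcript of the row highest in mean FPKM. A comparison of protein sequences was not analysed here. Alternatives covered the pseudocount, filter, scaling, variance trend, short RNAs, transcript rows, replicate block, left-out libraries, the choice of UTR and the seed match.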

Additional observations from a re-analysis of the deposited data

How the results depend on the processing

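None of the values recomputed for the 6 genes, the called genes of the lists or the 3 overlapping genes changed direction. Of 20 named genes that did not pass, 6 changed sign in at least 1 alternative (MMP24, TSPAN15, TSPAN17, HBEGF, SDC1 and ICAM1) and 4 passed in at least 1 (RHBDD2, RHBDD3, TIMP2 and AREG). Of 274 recomputed values for the called genes of the lists, 217 kept their call and 57 lost it. The log2 difference of ADAM17 was 3.18 with a pseudocount of 0.1, 2.27 with 5, and 3.20 with interval midpoints, an alternative chosen after seeing the data. For ADAM10 it was -0.60 and -0.36 with those pseudocounts, -0.47 with median-of-ratios, -0.61 with upper-quartile, -0.60 with quantile scaling, and -0.43 with midpoints. ADAM15 on its single row NM_003815 gave 3.69. Leaving out a library gave 2.73 to 3.16 for ADAM17, -0.59 to -0.48 for ADAM10, -0.53 to -0.31 for ADAM9, 1.35 to 2.06 for ADAM15, 0.14 to 0.76 for RHBDF1 and 0.10 to 0.29 for RHBDF2. A lone library in a group was assumed to vary like the other group. Of the 6 genes, 2 had a 3′ UTR complement to nucleotides 2 to 8. That count was 0 with the longest annotated 3′ UTR, 4 for nucleotides 2 to 7, which 34.3% of searched genes hold, and 1 within the deposited models, the last chosen after seeing the data. The longest 3′ UTRs of ADAM17 and ADAM9 belong to transcripts with coding sequences of only 180 and 387 nucleotides. The main transcripts have 2475 and 2460, so these are different models and not longer forms of the same 3′ UTR.

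Over all genes, 653 were higher and 230 lower without a filter, and 336 and 142 on single transcript rows. Leaving out a library gave 527 to 1078 higher and 140 to 716 lower. The replicate block gave 1078 higher and 534 lower. With the block, 0 rhomboid genes, 0 EGFR-family ligands and 0 other substrates were lower and 2 regulators were. Of the 19 calls in the lists, 13 held with the block. The median of all genes was -0.13 with upper-quartile, -0.01 with median-of-ratios and -0.09 with quantile scaling, and the calls were 1218 higher against 1386 lower, 1484 against 756 and 1286 against 1206.

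Regulators called higher were 5 without a filter, 5 with short RNAs kept and 3 to 7 with a library left out. Regulators called lower were 2 with mean FPKM of at least 5, 2 with upper-quartile, 2 with quantile scaling and 2 with midpoints, and 0 to 2 with a library left out. Substrates called higher were 3 with mean FPKM of at least 5 and 4 to 6 with a library left out. Substrates called lower were 0 with a pseudocount of 0.1, without a filter, with median-of-ratios scaling, with short RNAs kept or with any library left out, and 2 with upper-quartile or quantile scaling. EGFR-family ligands called lower were 0 without a filter, with mean FPKM of at least 5 or with short RNAs kept, and 0 to 1 with a library left out. Median-of-ratios scaling called 1 sheddase and 1 rhomboid gene higher, and a left-out library 0 to 1 rhomboid gene. Rhomboid genes called lower were 0 without a filter, with median-of-ratios scaling, with short RNAs kept or with any library left out. Fewer samples enter the left-out fits, and the cause of the other shifts was not tested. With 2 libraries a group, and intervals that miss the FPKM of single-row genes, levels between genes are less firm than differences between groups.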
